A study of Mus musculus with 6 samples.

Results

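Integrins are receptors built from an alpha and a beta subunit that bind the extracellular matrix outside the cell and, inside it, gather the proteins of focal adhesions. The alpha subunit largely sets the ligand (collagen, laminin or proteins with an RGD motif such as fibronectin and vitronectin). The beta tail binds talin and kindlin, which switch the receptor on, and adaptors such as vinculin, filamin and alpha-actinin tie it to actin. In fibroblasts these contacts carry traction and matrix assembly.

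The genes described here are 34 integrin subunits and adhesion adaptors, taken as the rows of the deposited count table whose symbol was on a list of 17 integrin subunits and 17 adaptors. They are 34 of 23420 rows, and all 34 had enough reads to be tested among 13044 genes. The cells were mouse embryonic fibroblasts of mixed 129/Sv-C57BL/6 strain transformed with the adenoviral oncogene E1A and the activated Ras allele HrasG12V, which both groups carried. There were 3 lines, each with 1 library from p53 wild-type cells that received a non-targeting guide (sgNTC) and 1 from cells that received a guide against p53 (sgp53). The sgp53 cells were labelled p53 null in lines 1 and 3 and functionally inactive for p53 in line 2. All cells recovered for 24 h at 5% oxygen after plating and were lifted with trypsin before lysis. Nothing in the labels tells if the lines are separate embryos or clones, so p-values measure only the spread between these libraries. Library names carry one number for lines 2 and 3 and another for line 1. No source explains it, and whether lines 2 and 3 are closer to each other than to line 1 is not known here.

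Library totals ran from 27503577 to 35860866 counts. The targeted gene Trp53 had 206, 277 and 253 CPM (counts per 1000000 of the normalized library total) in the sgNTC libraries, in the order of lines 1, 2 and 3 that is kept throughout, against 71.1, 72.0 and 113 CPM with sgp53. Its product's target Cdkn1a fell from 697 ± 44.1 to 86.3 ± 13.6 CPM (SD, n = 3 each), with a log2 fold change of -3.01. All 8 fibroblast markers were tested, 7 had positive log2 fold changes (median 3.23) and 3 rose (Col1a1, Col1a2 and Fap), while Vim, the most abundant, did not pass (-0.22). Without Vim their summed level was 57.8 to 71.3 CPM in sgNTC and 486 to 1850 CPM in sgp53. With Vim it was 2825 to 3424 and 2987 to 4851 CPM. Most of the sgp53 sum without Vim was Col1a1 and Col1a2. Fap was not called by edgeR with the line as a block (adjusted p = 0.0825) or by limma-voom (0.0615). In line 2 Pdgfra and Thy1 were lower with sgp53 (log2 differences -0.49 and -0.27).

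Of 6 epithelial markers 4 were tested, with sums of 259 to 646 CPM in sgNTC and 88.7 to 132 CPM in sgp53 and Krt5 at 0. Most of that sum was Krt18, which fell (edgeR adjusted p = 0.0295, 0.0534 with the line as a block), and without it the sums were 60.7 to 104 and 29.4 to 44.7 CPM, mostly Epcam. Cdh1 and Krt8 were not called (adjusted p = 0.863 and 0.405). The leukocyte list summed to 9.32 to 10.6 CPM in sgNTC and 4.00 to 4.57 CPM in sgp53, with Cd3e and Emr1 at 0, and its 1 tested marker, Cd68, fell (edgeR adjusted p = 0.0152, 0.0478 with the block). The endothelial and muscle lists summed to at most 3.83 CPM in any library. The part of these markers in the results was not tested, and in bulk RNA a smaller share of cells of one type and less RNA per cell cannot be told apart.

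The sgp53 library of line 3 had 3338 CPM of the ribosomal transcript Rn45s, against 636 to 864 CPM in the other 5. The chi-square per degree of freedom of its counts against the other sgp53 libraries was 41.0 and 58.0, where the other within-group pairs gave 21.8 to 44.7. Without it 6 members were called higher, Vcl being lost, while over all genes 140 were called higher against 360 with it.

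Those of the 34 genes that edgeR called were higher in the sgp53 cells. Adhesion lists outside the 34 had 7 genes called higher and 4 lower. Those higher were 5 of 25 extracellular ligands tested (20%) and 2 of 39 other focal adhesion proteins (5.13%), beside 2.76% of all genes. Those lower were 1 of the ligands (4%), 1 of the focal adhesion proteins (2.56%) and 2 of 12 partner membrane proteins (16.7%). Over all genes 3.69% were lower. The collagen receptor subunit Itga11 rose 19.9-fold from a very low level, the actin crosslinker Flna rose 1.91-fold, and Itgb5, Actn1, Zyx, Ilk and Vcl rose by less. These calls are from the fit that does not pair the libraries of a line. With the line as a block Flna, Itgb5, Actn1 and Vcl were not called (edgeR adjusted p = 0.0668, 0.0595, 0.0592 and 0.0916). Of the 34 genes 7 were called higher by the edgeR quasi-likelihood test at an adjusted p under 0.05, where 2.76% of all genes tested were called higher. None was called lower, where 3.69% of all genes were; limma-voom also called 0 lower and DESeq2 2 (Itgb3 and Pxn). At an unadjusted p under 0.05, 11 of the 34 were higher and 2 (the same Itgb3 and Pxn) lower, or 32.4% and 5.88%, beside 13.9% and 15.1% of all genes. The 7 called higher were 20.6% of the 34 genes. Over the 34 the median log2 fold change was 0.32, beside -0.01 over all genes tested, and 25 were positive and 9 negative. The 34 genes and the other lists were chosen with earlier results of these data known, so their shares are descriptions only.

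The call depended on the fit and on single libraries. When the line entered the fit as a block, 4 of the 34 genes were called higher (Itga11, Zyx, Ilk and Itga5) and 0 lower, beside 0.966% and 1.42% of all genes. DESeq2 called 10 higher, adding Itga5, Fermt2 and Cav1, where it called 9.17% of all genes higher and 9.00% lower, and limma-voom called 7 higher, where it called 2.18% of all genes higher and 3.17% lower. Without the sgNTC library of line 3 only Itga11 was called, without the sgp53 library of line 1 only Itga11 and Ilk, and without both libraries of any 1 line 0 were called. Calls over all genes fell too. From 360 called higher, 24 were left without the sgNTC library of line 3 and 44 without the sgp53 library of line 1. Without both libraries of line 1, 2 or 3 the numbers over all genes were 11, 12 and 4. The sgp53 values lay above sgNTC in every library for 12 of the 34 genes, or 35.3%, against 17.8% of all genes. These were 3 of the 17 integrin subunits (17.6%, near the share of all genes) and 9 of the 17 adaptors (52.9%). The edgeR calls without the block were 2 of the integrin subunits (11.8%) and 5 of the adaptors (29.4%), beside 2.76% of all genes. With the block they were 2 of the integrin subunits and 2 of the adaptors, beside 0.966% of all genes. The sgp53 values lay below in every library for 2 genes (Itgb3 and Vasp), against 19.0% of all genes.

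**Figure D1:**
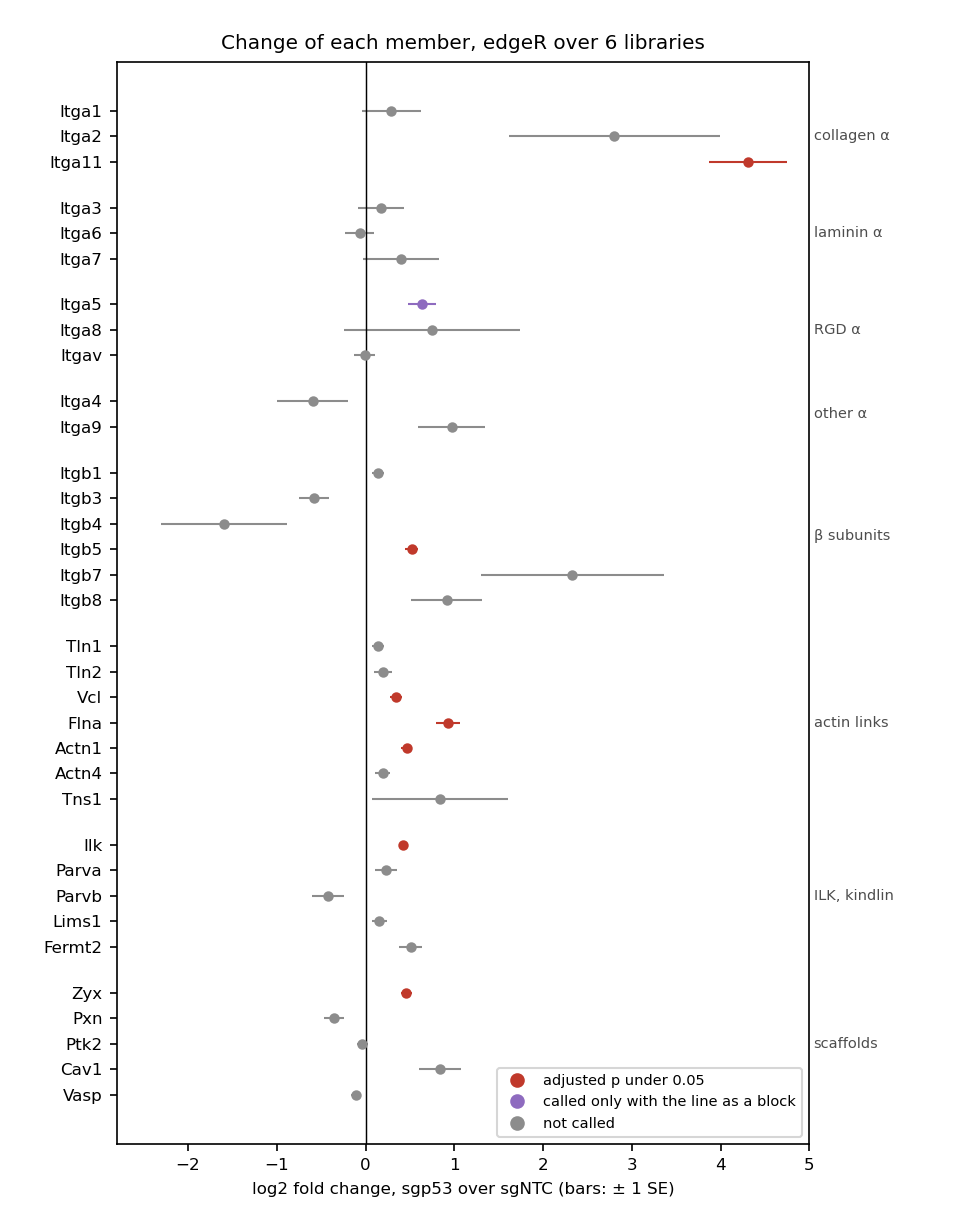
Log2 fold change of sgp53 over sgNTC with its standard error for each of the 34 genes (horizontal axis), grouped by role, with red points for genes called by edgeR and a purple point for Itga5, called by edgeR over the 6 libraries only with the line as a block. The 7 called genes all lie to the right of 0, from Vcl at 0.35 to Itga11 at 4.31.

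The region before the RefSeq start is shown for 3 adaptor genes that hold a CArG box or an AP-1 site and for Itga11, the gene with the largest change. Each is the 250 bases before the RefSeq start (GRCm38.p6), written 5′ to 3′ on the gene's strand. The capitals mark the CArG box, the site of serum response factor, in Vcl (chr14:20929148-20929397, plus strand) and Fermt2 (chr14:45530066-45530315, minus strand). In Zyx (chr6:42349578-42349827, plus strand) they mark an AP-1 site, TGANTCA. Itga11 (chr9:62677605-62677854, plus strand) held none of the motifs searched and has no capitals.
Vcl: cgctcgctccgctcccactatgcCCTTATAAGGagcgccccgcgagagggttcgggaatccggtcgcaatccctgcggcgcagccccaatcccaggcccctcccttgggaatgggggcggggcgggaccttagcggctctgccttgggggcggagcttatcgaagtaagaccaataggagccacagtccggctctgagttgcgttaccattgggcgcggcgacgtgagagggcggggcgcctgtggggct
Fermt2: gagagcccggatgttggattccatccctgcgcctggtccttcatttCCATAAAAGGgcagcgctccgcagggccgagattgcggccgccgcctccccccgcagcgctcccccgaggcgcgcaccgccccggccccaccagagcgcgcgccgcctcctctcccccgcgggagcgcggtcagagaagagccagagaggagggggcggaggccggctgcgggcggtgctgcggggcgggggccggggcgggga
Zyx: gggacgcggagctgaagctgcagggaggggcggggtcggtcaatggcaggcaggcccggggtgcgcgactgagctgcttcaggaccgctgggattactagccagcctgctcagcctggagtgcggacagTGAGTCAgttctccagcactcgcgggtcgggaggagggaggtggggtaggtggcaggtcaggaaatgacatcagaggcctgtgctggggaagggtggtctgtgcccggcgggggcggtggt
Itga11: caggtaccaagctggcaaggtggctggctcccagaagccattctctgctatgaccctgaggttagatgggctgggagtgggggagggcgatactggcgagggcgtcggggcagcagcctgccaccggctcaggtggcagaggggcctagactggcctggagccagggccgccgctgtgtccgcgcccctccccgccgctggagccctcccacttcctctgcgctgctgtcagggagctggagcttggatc
The G and C content of these windows was 67.2% for Vcl, 76.0% for Fermt2, 67.6% for Zyx and 68.4% for Itga11. RefSeq windows matched 26 of the 34 genes, and 5 motifs were searched on both strands. The CArG box was in 1.47% of all 32851 windows and in those of 2 of the 26 genes, 227 bases before the start in Vcl and 204 in Fermt2. The AP-1 site was in 6.75% of all windows and in 2 of the 26 (Zyx, 121 bases before the RefSeq start, and Actn4, 169). The TEAD site GGAATG was in 12.6% of windows and in 4 genes (Actn4, Itgb1, Vcl and Flna), the TATA box TATAAA in 12.4% and in 2, and the GC box GGGCGG in 32.7% and in 16. No match of one motif overlapped a match of another in the 26 genes' windows. The GENCODE gene used for positions starts earlier than RefSeq in 3 of the 4, so 198 bases of the Zyx window, with its AP-1 site, lie inside that gene, as do 53 bases of the Fermt2 window and 29 of the Itga11 window. A match is a description of the letters, not a site shown to be bound.

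The collagen-binding alpha subunits were scarce in the wild-type lines and differed in what they did. Itga11, which pairs with Itgb1 to bind fibrillar collagen and is typical of fibroblasts, lies on chromosome 9 (62677826 to 62783982, GRCm38). It had 0.180, 0.0725 and 0.169 CPM in sgNTC and 1.95, 3.03 and 3.76 CPM in sgp53. Every sgp53 library lay above every sgNTC library, although the sgNTC values rest on 6, 2 and 5 reads. The log2 fold change was 4.31 (SE 0.44) with an edgeR adjusted p of 0.00715, or 0.0326 with the line as a block. Over the 14 alternatives the adjusted p lay between 2.23e-10 and 0.109, and the gene was called in 11 of them.

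Itga2, the collagen receptor subunit also found on platelets and epithelia, had 0.391, 0.580 and 0.440 CPM in sgNTC and 0.478, 0.611 and 8.84 CPM in sgp53. The sgp53 library of line 3 alone stood high, with 252 reads against 13 to 22 in the others. Its log2 fold change was 2.80 (SE 1.19, edgeR adjusted p = 0.179), and 0.22 (adjusted p = 0.756) without that library. Itga1, the collagen and laminin receptor subunit of mesenchymal cells, had 3.16, 1.38 and 2.27 CPM in sgNTC and 2.36, 2.97 and 3.02 CPM in sgp53. Its groups overlapped (log2 fold change 0.29, SE 0.33).

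No laminin-binding alpha subunit was called by edgeR, by limma-voom or by DESeq2, and none had an unadjusted p under 0.05. Itga3, which pairs with Itgb1 to bind laminins, had 316, 186 and 312 CPM in sgNTC and 305, 388 and 228 CPM in sgp53. Itga6, which pairs with Itgb1 or with the hemidesmosome subunit Itgb4, had 218, 181 and 219 CPM against 171, 170 and 249 CPM. In both genes the groups overlapped (log2 fold changes 0.18, SE 0.26, and -0.07, SE 0.17). Itga7, the laminin receptor subunit of muscle, had 21.9, 8.33 and 12.9 CPM in sgNTC and 11.4, 26.9 and 18.8 CPM in sgp53, and its lines moved in opposite directions.

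Among the alpha subunits that bind RGD ligands, Itga5 was the one whose groups did not overlap. Itga5 (chromosome 15, 103344286 to 103366763) forms the fibronectin receptor with Itgb1. It had 216, 171 and 205 CPM in sgNTC and 319, 242 and 358 CPM in sgp53. Each line lay above its own control, with means of 197 ± 23.7 and 306 ± 58.7 CPM (SD, n = 3 each). The log2 fold change was 0.63 (SE 0.16), with an edgeR adjusted p of 0.0642 without a block and 0.0475 with the line as a block. It had an unadjusted p of 0.0212 for differences between lines, but across all genes 0 of 13044 passed that test at an adjusted p under 0.05, a share of 0%, while 461 had an unadjusted p under 0.05. Itga5 was the only one of the 34 genes among those 461, and no other tool was run for the lines.

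Itgav, which pairs with several beta subunits to bind vitronectin and fibronectin, had 269, 269 and 246 CPM in sgNTC and 250, 224 and 304 CPM in sgp53. These values overlapped, with a log2 fold change of -0.01 and an SE of 0.11. Itga8, the nephronectin receptor subunit, had 3.76, 0.0725 and 1.22 CPM in sgNTC and 2.36, 2.06 and 4.18 CPM in sgp53. The sgNTC library of line 2 held 2 reads of it, and the log2 fold change went from 0.75 (SE 0.99) to 0.20 without that library, 2.13 without sgNTC line 1 and 0.38 without sgp53 line 3. Of the subunits that bind VCAM-1 and tenascin, Itga4 had 2.80, 3.84 and 1.90 CPM against 1.06, 2.08 and 2.49 CPM. Itga9 had 1.32, 0.797 and 1.12 CPM against 2.32, 1.25 and 2.81 CPM. Neither was called (edgeR adjusted p = 0.366 and 0.149), and the groups overlapped in both.

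**Figure D2:**
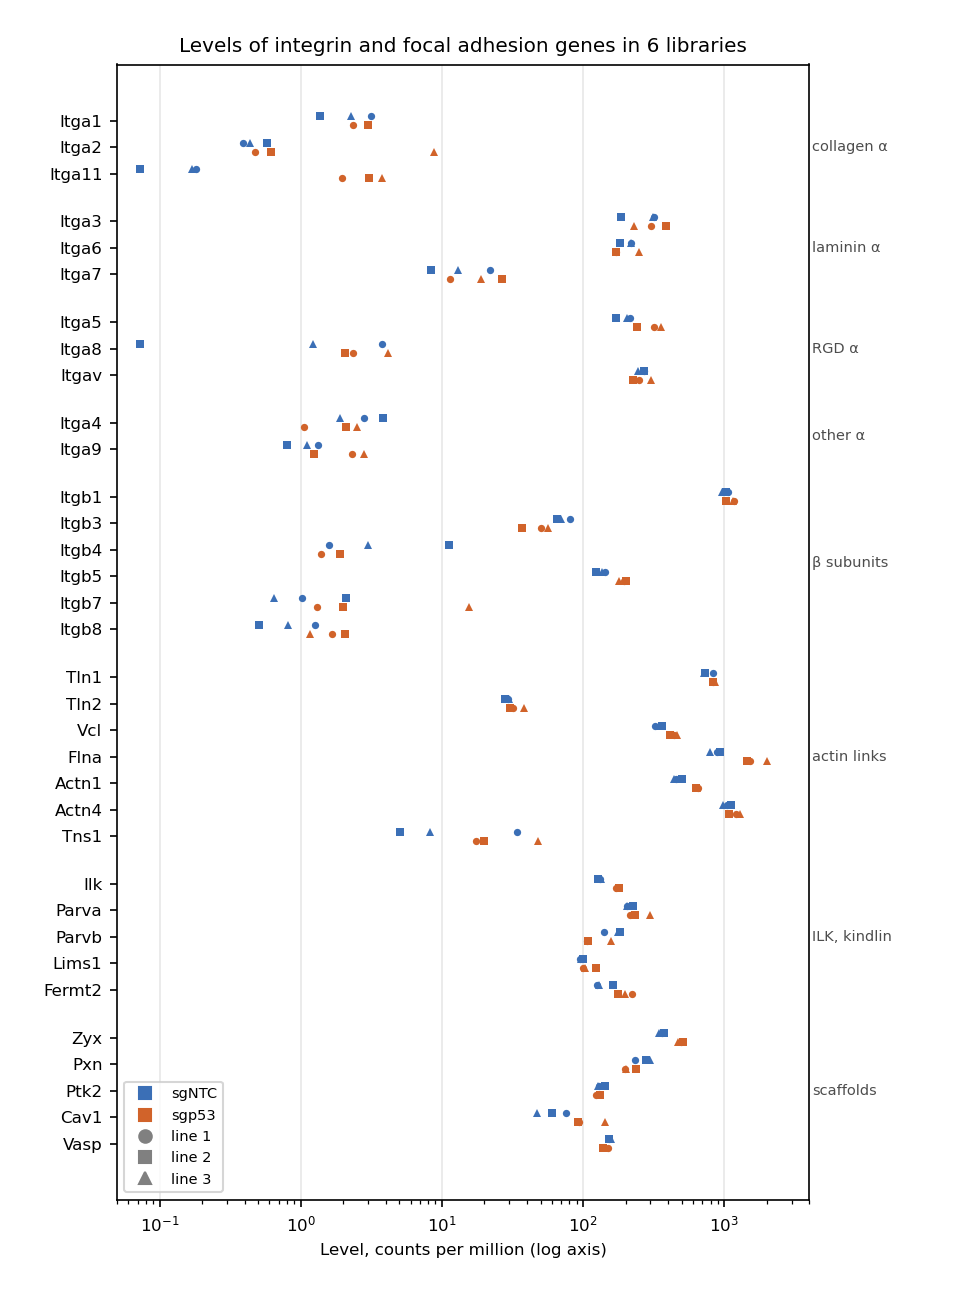
Level of each of the 34 genes in CPM (log axis) in the 3 sgNTC and 3 sgp53 libraries, with a marker shape for each line. The values span from 0.0725 CPM, for Itga11 and Itga8 in 1 sgNTC library, to Flna at 2005 CPM, and the sgp53 markers of Itga11 stand clear of its sgNTC markers.

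Of the beta subunits Itgb5 rose, and Itgb3 had lower values that missed the edgeR threshold. Itgb1, the common partner of most alpha subunits and the beta subunit of highest level, had 1065, 1021 and 957 CPM in sgNTC and 1173, 1035 and 1148 CPM in sgp53. Its groups overlapped, with a log2 fold change of 0.14, an SE of 0.07 and an edgeR adjusted p of 0.237. Itgb5 (chromosome 16, 33829665 to 33949338), which joins Itgav in a vitronectin receptor, had 142, 124 and 135 CPM in sgNTC and 195, 201 and 180 CPM in sgp53. All sgp53 libraries lay above all sgNTC libraries. The means were 134 ± 9.25 and 192 ± 10.8 CPM (SD, n = 3 each), with a log2 fold change of 0.52 (SE 0.07) and an edgeR adjusted p of 0.0173, or 0.0595 with the line as a block.

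Itgb3, the other vitronectin subunit of Itgav, had 80.5, 65.5 and 69.5 CPM in sgNTC and 50.7, 36.7 and 56.5 CPM in sgp53. All its sgp53 libraries lay below all sgNTC libraries, with means of 71.8 ± 7.78 and 48.0 ± 10.2 CPM. The log2 fold change of -0.58 (SE 0.17) missed the threshold in edgeR (adjusted p = 0.0841, 0.0818 with the block) and passed it in DESeq2 (adjusted p = 0.0138). Itgb7, a subunit mainly of leukocytes, had 1.02, 2.10 and 0.643 CPM in sgNTC and 1.30, 2.00 and 15.7 CPM in sgp53. As with Itga2, 1 library stood apart, the sgp53 library of line 3. Its log2 fold change was 2.33 (SE 1.03, edgeR adjusted p = 0.194), and 0.40 (adjusted p = 0.692) without that library.

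Itgb4, which pairs with Itga6 in hemidesmosomes of epithelia, had 1.59, 11.2 and 2.98 CPM in sgNTC and 1.40, 1.89 and 1.90 CPM in sgp53. The sgNTC library of line 2 stood apart, with 308 reads against 41 to 88 in the other 5. Its log2 fold change of -1.59 (adjusted p = 0.193 by edgeR, SE 0.71) became -0.40 without that library. Itgb8, whose pair with Itgav activates latent TGF-beta, had 1.26, 0.507 and 0.813 CPM in sgNTC and 1.67, 2.06 and 1.16 CPM in sgp53. The groups overlapped, and the log2 fold change of 0.91 had an SE of 0.40 and an edgeR adjusted p of 0.193.

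**Figure D3:**
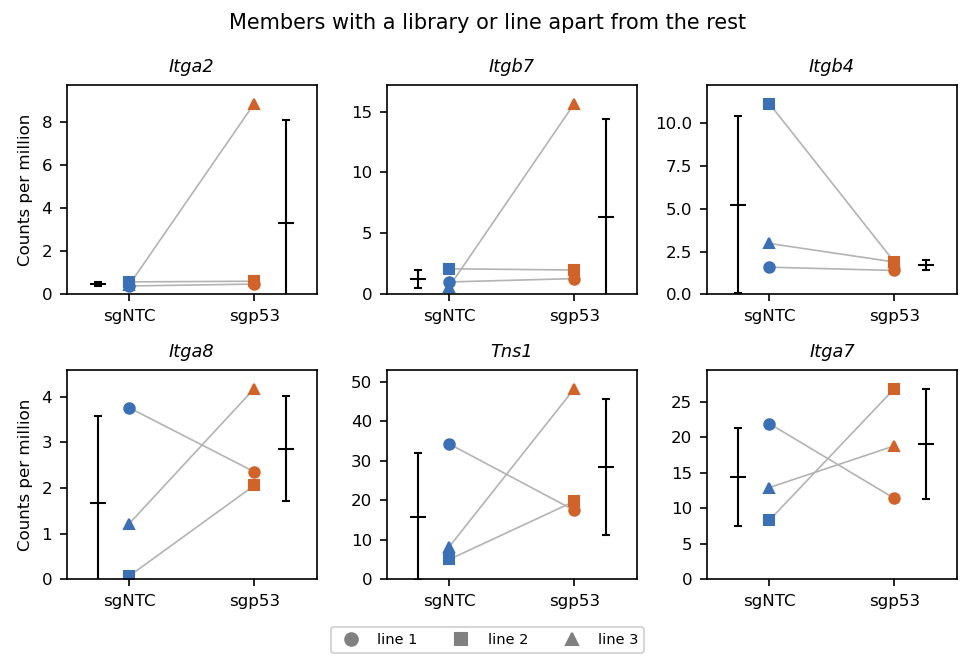
CPM (linear axis from 0) of 6 genes in which a library or a line stood apart, with the libraries of a line joined and the mean ± SD (n = 3) beside each group; bars that would pass below 0 are cut there. The sgp53 library of line 3 is high for Itga2 at 8.84 CPM and for Itgb7 at 15.7 CPM, and line 1 runs opposite to lines 2 and 3 for Itga7, Itga8 and Tns1.

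Levels of different genes compare only per length, so CPM was divided by the kilobases of exon of each gene. On that scale Itgb1 and Actn4 stood highest of the 34 genes in sgNTC, both at 266 CPM per kilobase, and Itga11 lowest at 0.0283. In sgp53 Actn4 was at 303 and Itgb1 at 293 CPM per kilobase, and Itga11 had moved from rank 34 to rank 27 at 0.586. Flna went from 102 to 195 CPM per kilobase and Itga5 from rank 14, at 45.1, to rank 9, at 69.9.

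The make-up of the integrin pool was then described as each subunit's percent of the summed CPM per kilobase of the alpha or beta subunits in a library. The alpha sum was 186 ± 25.2 in sgNTC and 217 ± 14.3 in sgp53, and the beta sum 319 ± 16.0 and 361 ± 19.8 CPM per kilobase (SD, n = 3 each). Itga5 made up 24.3% ± 0.465 of the alpha pool in sgNTC and 32.1% ± 4.75 in sgp53, while Itga6 made up 25.6% ± 1.03 and 20.6% ± 3.33. Itga3 held 27.5% ± 4.27 and 27.2% ± 8.45, and Itgav 20.3% ± 3.52 and 16.9% ± 1.59. Itga11 stayed a minor subunit, with 0.0148% in sgNTC and 0.268% in sgp53. Of the beta pool Itgb1 held 83.3% ± 0.779 in sgNTC and 81.2% ± 0.947 in sgp53. Itgb5 went from 12.4% ± 0.849 to 15.7% ± 1.64 and Itgb3 from 3.89% ± 0.299 to 2.29% ± 0.384.

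**Figure D4:**
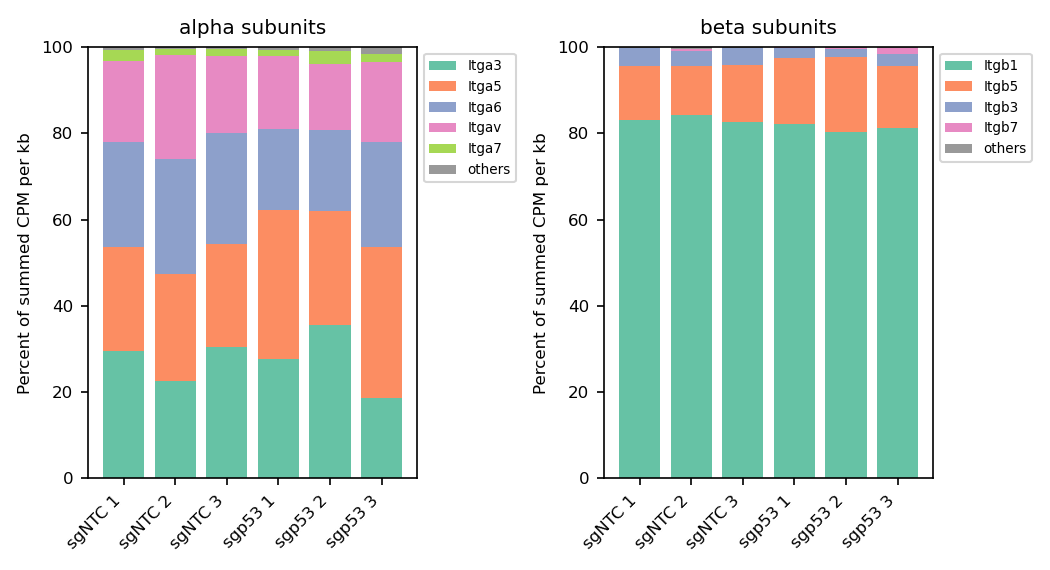
Percent of the summed CPM per kilobase of the alpha subunits and of the beta subunits (vertical axis, from 0) held by each subunit in each of the 6 libraries. Itgb1 fills most of the beta pool in every library, and Itgb5 takes a larger and Itgb3 a smaller percent in the sgp53 libraries.

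Ratios of related genes within a library do not depend on the library's scaling. For 9 ratios, chosen after the values were seen, the groups did not overlap, and an exact two-sided permutation test gave p = 0.1 for each, raw and adjusted over the 9, the smallest that 3 against 3 allows. Groups that do not overlap always give that p, so the test adds nothing to the choice of ratios. Values are given for 8 of the ratios, 6 beside their genes. Itgb5 per Itgb3 in reads was 1.76, 1.89 and 1.95 in sgNTC and 3.83, 5.47 and 3.18 in sgp53. Itga5 per Itga6 was 0.991, 0.942 and 0.938 against 1.86, 1.43 and 1.43. In each line both ratios were higher with sgp53 than with sgNTC.

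Of the 7 adaptors that link integrins to actin 3 were called higher (42.9%, beside 2.76% of all genes). With the line as a block 0 were, beside 0.966% of all genes. These 7 adaptors, called or not, all had positive log2 fold changes, with a median of 0.35. Of all 13044 genes tested 6327 were positive. Within lines the difference was negative for Tns1 and Tln1 in line 1 (-0.97 and -0.01) and for Actn4 in line 2 (-0.06). Flna (chromosome X, 74223461 to 74249820), the filamin that crosslinks actin and binds beta tails, had 882, 931 and 793 CPM in sgNTC and 1519, 1450.3 and 2005 CPM in sgp53. Every sgp53 library lay above every control library, and line 3 was highest. The means were 869 ± 69.8 and 1658 ± 302 CPM (SD, n = 3 each), with a log2 fold change of 0.93 (SE 0.14) and an edgeR adjusted p of 0.0193, or 0.0668 with the block. Flna per Flnc, the filamin known from muscle, was 0.696, 0.740 and 0.693 against 1.12, 1.24 and 2.33.

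Actn1 (chromosome 12, 80167547 to 80260371), the alpha-actinin of stress fibres, had 455, 500.2 and 440 CPM in sgNTC and 652, 632 and 641 CPM in sgp53. The sgp53 libraries all lay above the controls, with means of 465 ± 31.5 CPM in sgNTC and 642 ± 9.98 in sgp53. The log2 fold change was 0.46 (SE 0.06) with an edgeR adjusted p of 0.0152, or 0.0592 with the block. Its paralog Actn4 had 1039, 1119 and 979 CPM against 1215, 1076 and 1293 CPM, which overlapped (adjusted p = 0.199). Actn1 per Actn4 was 0.438, 0.447 and 0.449 in sgNTC and 0.537, 0.588 and 0.496 in sgp53.

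Vcl (chromosome 14, 20929398 to 21033676), vinculin, which reinforces the bond of talin to actin under load, had 326, 365 and 349 CPM in sgNTC and 444, 416 and 464 CPM in sgp53. The groups did not overlap (347 ± 19.9 and 441 ± 24.2 CPM), with a log2 fold change of 0.35 (SE 0.07) and an edgeR adjusted p of 0.0372. The call did not survive the block (adjusted p = 0.0916) nor the removal of any 1 library, and was kept in 4 of 14 alternatives. Of the exon length of Vcl 39.7% is shared with Ap3m1 on the opposite strand, and the strand setting of the counting is not given in the sources used here. Ap3m1 had 60.1, 68.2 and 73.0 CPM against 67.2, 66.0 and 58.2 CPM, so its values overlapped, and Vcl per Ap3m1 was 5.41, 5.35 and 4.78 in sgNTC and 6.60, 6.31 and 7.98 in sgp53.

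The talins, which bind beta tails to activate integrins, were nearer their controls. Tln1 had 832, 736 and 715 CPM in sgNTC and 826, 826 and 865 CPM in sgp53 (log2 fold change 0.14, SE 0.07). Tln2 had 29.4, 28.0 and 29.8 CPM against 31.9, 30.5 and 37.9 CPM, with no overlap and an edgeR adjusted p of 0.237, and its log2 fold change went from 0.20 to 0.10 without the sgp53 library of line 3. Tns1, the tensin of fibrillar adhesions, had 34.2, 5.04 and 8.26 CPM in sgNTC and 17.4, 19.7 and 48.2 CPM in sgp53. The sgNTC library of line 1 was high, and the log2 fold change was 0.84 (SE 0.76), 2.09 (adjusted p = 0.0826) without that library and 0.23 (adjusted p = 0.888) without the sgp53 library of line 3, which was also high.

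**Figure D5:**
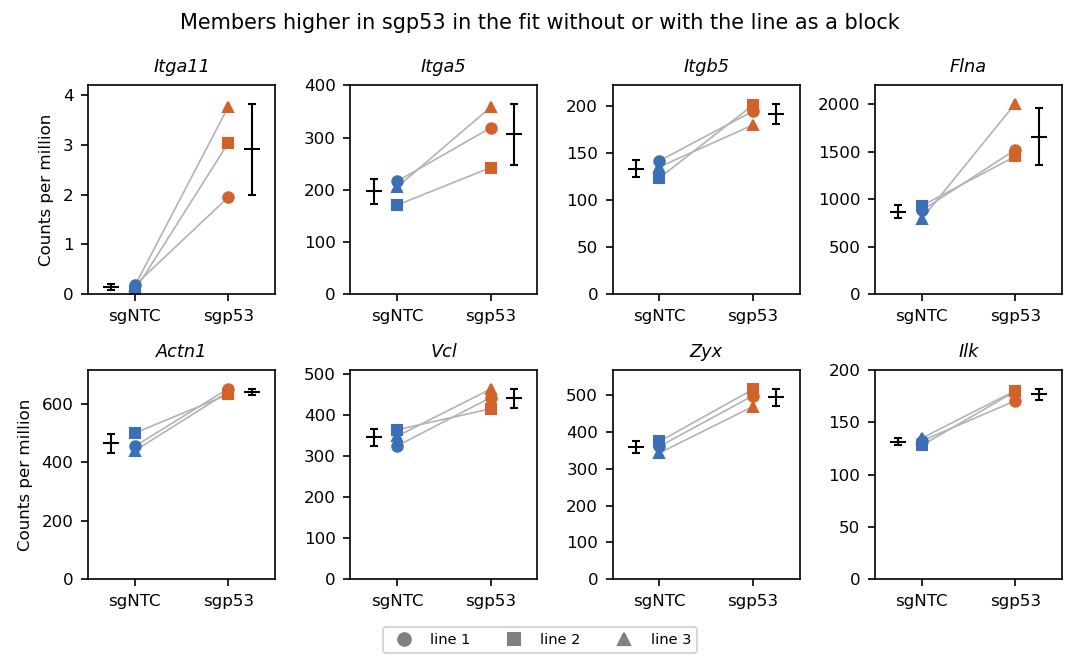
CPM (linear axis from 0) of the 8 genes called higher by edgeR without or with the line as a block, with the libraries of a line joined and the mean ± SD (n = 3) beside each group. Every line rises from sgNTC to sgp53 in all 8 genes, from Itga11 at most 0.180 CPM in sgNTC to Flna at 2005 CPM in sgp53.

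In the complex of ILK, PINCH and parvin, which docks on beta tails beside kindlin, 1 of 5 genes was called. That is 20%, where 2.76% of all genes were called higher. With the line as a block 1 was called as well, where 0.966% of all genes were called higher. Ilk (chromosome 7, 105736592 to 105742925), the pseudokinase at its centre, had 132, 128 and 135 CPM in sgNTC and 171, 180 and 180 CPM in sgp53. The groups were far apart for their spread (132 ± 3.47 and 177 ± 5.41 CPM), with a log2 fold change of 0.43 (SE 0.05) and an edgeR adjusted p of 0.0108, or 0.0478 with the block. Exons of Ilk share 81.7% of their length with Taf10 and 17% with Rrp8, both on the opposite strand. Taf10 had 70.6, 71.3 and 66.9 CPM against 69.6, 71.5 and 69.5 CPM, 0.01 apart on the log2 scale. Rrp8 had 81.4, 88.3 and 80.7 CPM against 102, 94.7 and 99.6 CPM, higher in sgp53 with no overlap. Its adjusted p was 0.0643 by edgeR and 0.00846 by DESeq2. Whether reads of either neighbour entered the Ilk counts was not tested. Ilk per Taf10 was 1.87, 1.8 and 2.01 in sgNTC and 2.45, 2.51 and 2.60 in sgp53.

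Fermt2, kindlin-2, which activates integrins together with talin, had 126, 164 and 130 CPM in sgNTC and 221, 177 and 199 CPM in sgp53. These did not overlap (log2 fold change 0.51, SE 0.13), but edgeR gave an adjusted p of 0.0642, and 0.129 with the block, against 0.00252 in DESeq2. Parva and Parvb are the parvins, which bind actin. Parva had 205, 226 and 204 CPM in sgNTC and 216, 232 and 297 CPM in sgp53, and Parvb had 141, 183 and 177 CPM against 107, 109 and 159 CPM. Neither was called (adjusted p = 0.266 and 0.183), the groups overlapped in both, and the log2 fold change of Parva went from 0.23 to 0.09 without the sgp53 library of line 3. Parva per Parvb was 1.45, 1.23 and 1.15 in sgNTC and 2.02, 2.14 and 1.87 in sgp53. Lims1, the adaptor PINCH1, had 95.4, 99.5 and 97.4 CPM against 99.7, 123 and 103 CPM, with no overlap and an adjusted p of 0.288.

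Among the scaffolds and signalling proteins Zyx rose and Pxn was lower without an edgeR call. Zyx (chromosome 6, 42349630 to 42360213), zyxin, which gathers on actin under tension, had 360, 374 and 342 CPM in sgNTC and 498, 514 and 468 CPM in sgp53. The groups did not overlap (359 ± 15.6 and 493 ± 23.4 CPM), with a log2 fold change of 0.46 (SE 0.06) and an edgeR adjusted p of 0.0143, or 0.0423 with the block. Pxn, paxillin, the scaffold of focal adhesions, had 234, 278 and 298 CPM in sgNTC and 197, 236 and 202 CPM in sgp53. These overlapped by 1 library, with an edgeR adjusted p of 0.102 and a DESeq2 adjusted p of 0.0273. Zyx per Pxn was 1.54, 1.34 and 1.15 in sgNTC and 2.53, 2.18 and 2.32 in sgp53.

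Cav1, the coat protein of caveolae, had 75.6, 60.5 and 47.2 CPM in sgNTC and 93.0, 91.6 and 144 CPM in sgp53. All sgp53 libraries lay above all controls, with a log2 fold change of 0.84 (SE 0.24), an edgeR adjusted p of 0.0807 (0.155 with the block) and a DESeq2 adjusted p of 0.00359. Without the sgp53 library of line 3 the log2 fold change was 0.60. Ptk2, focal adhesion kinase, had 129, 142 and 127 CPM against 124, 132 and 133 CPM, with a log2 fold change of -0.03 (SE 0.06). Vasp, which extends actin filaments at adhesions, had 153, 154 and 158 CPM against 151, 139 and 141 CPM. Its sgp53 values lay below all controls by a small margin, with a log2 fold change of -0.11 and an SE of 0.05 (adjusted p = 0.231 by edgeR).

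The calls were also counted by level. Of the 24 genes with a mean of at least 20 CPM, 6 were called higher, beside 3.30% of all genes at that level. Of the 10 under 20 CPM, 1 (Itga11) was, beside 1.93% of all genes there.

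The rest of the adhesion pathway was counted from lists that hold none of the 34 genes. Of 9 other integrin subunits listed 3 were tested and 0 were called by edgeR, DESeq2 or limma-voom, with 0 at an unadjusted p under 0.05. Itga2b had 3.72 ± 0.276 CPM in sgNTC and 3.30 ± 0.221 in sgp53, and Itga10 had 1.98 ± 0.201 and 2.67 ± 0.875. Of 42 other focal adhesion proteins 39 were tested, 2 rose and 1 fell (5.13% and 2.56%, beside 2.76% and 3.69% of all genes), with a median log2 fold change of 0.08. Palld, an actin-bundling palladin, rose from 32.7 ± 3.73 to 47.7 ± 1.04 CPM (edgeR adjusted p = 0.0281). Ptk2b, the FAK relative Pyk2, fell from 28.7 ± 7.31 to 10.1 ± 2.02 CPM, with a log2 fold change of -1.51 and an adjusted p of 0.0227. With the block 0 were called higher and 1 lower, beside 0.966% and 1.42% of all genes, the 1 being Ptk2b at an adjusted p of 0.0198.

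Of 26 extracellular ligands of integrins 25 were tested, 5 rose and 1 fell (20% and 4%, beside 2.76% and 3.69% of all genes). Their median log2 fold change was 0.47. The block called 5 higher and 0 lower, beside 0.966% and 1.42% of all genes. The fibrillin Fbn1, which carries an RGD motif, had 155, 123 and 127 CPM in sgNTC and 327, 316 and 362 CPM in sgp53. Chains of collagen type I, the ligand of Itga11, were scarce in the controls, at 8.90 ± 3.72 CPM for Col1a1 and 11 ± 6.46 for Col1a2, and abundant in sgp53, at 459 ± 265 and 395 ± 340 CPM (edgeR adjusted p = 0.00728 and 0.0210). Both were highest in the sgp53 library of line 3. The other ligands called by edgeR were Col3a1 and Postn, which rose, and Tgfb1, whose latent form binds Itgav pairs. Tgfb1 fell by 0.88 on the log2 scale (edgeR adjusted p = 0.0450, 0.0785 with the block). Limma-voom called 3 ligands higher and 0 lower. It missed Col3a1, Postn and Tgfb1, with adjusted p of 0.0569, 0.0711 and 0.0564. Of 12 partner membrane proteins 0 rose and 2 fell (16.7%, beside 3.69% of all genes), with a median of 0.01. At an unadjusted edgeR p under 0.05, 1 was higher and 2 lower (8.33% and 16.7%), beside 13.9% and 15.1% of all genes. Cd81, a tetraspanin that binds integrins in the plane of the membrane, had 276 ± 29.6 CPM in sgNTC and fell to 121 ± 12.3 in sgp53, which is -1.19 on the log2 scale (SE 0.11, adjusted p = 0.00471 by edgeR). Plaur, the urokinase receptor, fell from 170 ± 17.8 to 111 ± 8.40 CPM (edgeR adjusted p = 0.0223, 0.0728 with the block). Of 8 caveolar partners of Cav1, 7 were tested and 0 called by edgeR or limma-voom. At an unadjusted edgeR p under 0.05, 4 were higher and 1 lower (57.1% and 14.3%), beside 13.9% and 15.1% of all genes. DESeq2 called 2 higher and 0 lower, beside 9.17% and 9.00% of all genes. Ptrf, the caveolar coat protein cavin-1, had 533 ± 31.3 CPM in sgNTC and 612 ± 19.0 in sgp53 (edgeR adjusted p = 0.0935), and Ehd2, an ATPase at the caveolar neck, had 138 ± 21.5 and 190 ± 39.1 CPM (0.148).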

How the data were processed

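RNA sequencing gave raw read counts per gene symbol for 6 libraries. Per the submitters' processing notes CASAVA 1.8, STAR, DESeq2 and mm10 were used, without their roles, and the authors deposited the counts unnormalized. How reads were counted, with which annotation and strand setting, is not given in the sources used here. No column was of an unknown sample, and 27 rows had gene names turned into dates. Within-group pairs of libraries differed beyond sampling noise (chi-square per degree of freedom 21.8 to 58.0), so each counted as 1 replicate.

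From the counts, sgp53 was tested against sgNTC with edgeR 4.0.16 (quasi-likelihood test, R 4.3.3) after TMM scaling and filterByExpr (4 residual degrees of freedom), with Benjamini-Hochberg adjustment over 13044 genes and a threshold of 0.05. The procedure was tested on simulated data. CPM are counts per 1000000 of the normalized library total. Line differences were tested in a fit of line and group. Libraries of the same number are of the same cell line per the labels, which pairs them. Their deviations from group means correlated at 0.089, 0.0018 and -0.027 for lines 1, 2 and 3. Alternatives were the line as a block (2 residual degrees of freedom), DESeq2 1.42.0, limma-voom 3.58.1, RLE scaling, no filter, and leaving out each library or line. Within-line differences are of log2 CPM with a prior count of 2.

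All 34 members are given. Values in each library were planned for members called without or with the block and for the member of highest level in each role; those of the other members were added. Of each other list up to 3 called genes, or 2 of highest level, were named, and Col3a1, Postn and Tgfb1 were added after their values were seen. The values of 1 gene that this rule takes are not reported here. The members and lists were chosen with earlier results of these data known. Older symbols in the table were used for some genes (Ptrf for cavin-1). Exon lengths and positions are from GENCODE M21 (GRCm38, which mm10 denotes), and upstream sequences from RefSeq on GRCm38.p6.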

Additional observations from a re-analysis of the deposited data

Results flagged for a closer look

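In 3 members the lines moved in opposite directions, each by more than 0.5 on the log2 scale: line 1 was lower in sgp53 and lines 2 and 3 higher. For Itga8 the within-line differences were -0.66, 3.95 and 1.72 in lines 1, 2 and 3, a range of 4.61. Tns1 gave -0.97, 1.96 and 2.54, a range of 3.51. Itga7 gave -0.94, 1.68 and 0.54, a range of 2.62. With 1 library per line and guide, whether the change with sgp53 differs between lines could not be tested. Itga8 rests on few reads, 125, 2 and 36 in sgNTC and 69, 74 and 119 in sgp53.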

How the results depend on the processing

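No called member changed direction in any alternative run. Of uncalled members, Itga1, Itga3, Itga6, Itga7, Itgav, Ptk2 and Tns1 changed sign in at least 1 of 14. Over all genes, 360 were higher and 481 lower; the line as a block gave 126 and 185, DESeq2 1195 and 1172, limma-voom 284 and 414, RLE 376 and 467, no filter 324 and 423, and leaving out a library or line 4 to 251 higher and 15 to 449 lower. Of the 34 members, 7 were higher, 4 with the replicate block, which lost Itgb5, Vcl, Flna and Actn1 and gained Itga5. DESeq2 gave 10, limma-voom, RLE and no filter 7 each, and leave-outs 0 to 7. Without sgNTC line 1 or sgp53 line 3 the loss was Vcl, without sgNTC line 2 Vcl was lost and Fermt2 added, and without sgp53 line 2 Itgb5 and Vcl were lost and Itga5 added. Members lower stayed at 0 in every alternative except DESeq2, with 2. The other adhesion lists had 7 higher and 4 lower; the block gave 5 and 2, DESeq2 20 and 7, limma-voom 5 and 3, and leave-outs 0 to 7 and 0 to 5. Line tests gave 0 in every alternative run. Of the values of 48 named genes under the alternatives, 569 kept their side of the threshold, 93 lost it, 9 gained it and 0 reversed. The cause of these changes was not tested, except that fewer samples remain in leave-outs and fewer degrees of freedom with the block. Depth limits Itga11, which rests on 13 reads in all of sgNTC.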
